A study of Mus musculus with 4 samples.

Results

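The genes of the mitochondrial ribosomal proteins were compared between TS2 and TS1, mouse cell lines derived from T lymphocytes. A gene belonged to the group when its symbol in the array annotation began with Mrpl or Mrps followed by a digit, the letter l marking the large and s the small ribosomal subunit. Each gene was represented by its brightest probe set among those annotated to a single gene. This gave 77 genes, 48 of the large and 29 of the small subunit, of 19938 genes measured in all. RefSeq lists 78 protein-coding mouse genes with such symbols. The one not covered, Mrpl53, shares its probe set with Ccdc142 and was left out.

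TS2 and TS1 were each measured as biological duplicates, A and B, with 1 Affymetrix mouse gene array for each of the 4 RNA samples. Both lines were labelled as derived from CD4+ T lymphocytes, received no treatment, and grew in Iscove-Dulbecco's medium with murine interleukin-9, a T cell growth factor. The labels do not say how the lines were derived, and do not say whether the duplicates were separate cultures, so the p-values measure the spread between these arrays, which may be technical. A value is the log2 of the deposited intensity of a probe set, and a difference is TS2 minus TS1 on that scale.

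Mitochondria carry a ribosome of their own, which makes the few proteins encoded by mitochondrial DNA, all of them parts of the respiratory chain and the ATP synthase. Its RNA comes from mitochondrial DNA, but its proteins are encoded in the nucleus, made in the cytosol and imported. Many have a bacterial counterpart, while others exist only in mitochondria and surround a core whose RNA has become shorter.

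The nuclear genes of mitochondrial proteins are known targets of the factors NRF1, GABP (of the ETS family) and YY1, and of MYC, which binds E-boxes. RefSeq windows of 300 bases (250 before to 50 after the gene start, build GRCm38.p6) were found for 68 of the 77 genes and searched on both strands for part or core motifs of these factors. The ETS core CCGGAAG stood in the windows of 25 of the 68 genes (36.8%), against 13.6% of all 15614 measured genes with a window and 8.86% of all 32851 windows. The YY1 core AAGATGGC stood in 12 (17.6%), against 3.77% of measured genes and 2.75% of windows. The NRF1 part motif GCGCATGC stood in 8 (11.8%), against 4.27% and 2.71%, and the E-box CACGTG in 5 (7.35%), against 9.5% and 7.15%. The end of the ETS core and the start of the YY1 core share letters, so a single stretch can hold both, and the E-box reads the same on both strands. At least 1 of the motifs stood in the windows of 39 genes. A match is a description of letters and not a binding site.

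The 5 windows below show how the motifs lie in single promoters, with capitals for the motif letters. The first 3 belong to genes that were lower in TS2: Mrpl37 with an E-box and a YY1 core, Mrpl39 with the NRF1 motif on both strands in overlap, and Mrpl21 with an ETS core on the minus strand of the window. Mrps11 lies next to Mrpl46 and is read in the opposite direction, and their windows overlap. Its window holds a YY1 core on the minus strand. Mrpl17, with an NRF1 motif and an ETS core, was among the few genes with higher values in TS2.
Mrpl37, chr4:107066817-107067116, minus strand: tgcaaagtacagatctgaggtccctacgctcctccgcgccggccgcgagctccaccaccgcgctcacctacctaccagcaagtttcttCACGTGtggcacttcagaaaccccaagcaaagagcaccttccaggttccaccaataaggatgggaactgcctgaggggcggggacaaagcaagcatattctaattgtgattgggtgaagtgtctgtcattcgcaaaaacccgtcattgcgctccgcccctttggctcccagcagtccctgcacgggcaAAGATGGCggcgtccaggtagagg
Mrpl39, chr16:84735195-84735494, minus strand: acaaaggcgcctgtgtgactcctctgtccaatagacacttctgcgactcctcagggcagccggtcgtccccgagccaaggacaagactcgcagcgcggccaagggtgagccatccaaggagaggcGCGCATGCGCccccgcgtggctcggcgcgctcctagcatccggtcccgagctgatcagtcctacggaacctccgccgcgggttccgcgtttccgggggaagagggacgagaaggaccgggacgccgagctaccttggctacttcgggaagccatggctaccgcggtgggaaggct
Mrpl21, chr19:3282792-3283091, plus strand: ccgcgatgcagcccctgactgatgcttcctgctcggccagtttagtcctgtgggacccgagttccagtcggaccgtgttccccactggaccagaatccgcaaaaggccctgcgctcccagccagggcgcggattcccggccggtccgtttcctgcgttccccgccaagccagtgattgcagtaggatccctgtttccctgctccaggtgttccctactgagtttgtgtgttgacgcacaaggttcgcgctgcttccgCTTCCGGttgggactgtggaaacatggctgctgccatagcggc
Mrps11, chr7:78782881-78783180, plus strand: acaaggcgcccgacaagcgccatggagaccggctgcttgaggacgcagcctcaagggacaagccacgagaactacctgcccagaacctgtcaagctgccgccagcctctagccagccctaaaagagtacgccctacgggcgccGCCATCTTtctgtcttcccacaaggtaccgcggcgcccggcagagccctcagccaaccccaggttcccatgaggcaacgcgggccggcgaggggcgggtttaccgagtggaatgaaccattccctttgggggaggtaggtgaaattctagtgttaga
Mrpl17, chr7:105811038-105811337, minus strand: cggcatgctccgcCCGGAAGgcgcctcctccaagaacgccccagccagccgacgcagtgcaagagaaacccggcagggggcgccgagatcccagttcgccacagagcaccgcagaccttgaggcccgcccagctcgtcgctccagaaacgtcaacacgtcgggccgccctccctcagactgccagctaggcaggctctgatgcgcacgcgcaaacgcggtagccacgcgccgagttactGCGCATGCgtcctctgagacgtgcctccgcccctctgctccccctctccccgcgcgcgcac

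Transcripts of mitochondrial ribosomal proteins were lower in TS2 for 18 of the 77 genes (23.4%) and higher for 0, at a Benjamini-Hochberg adjusted p under 0.05 in limma's fit of all 19938 genes. Over all genes, 13.5% passed that threshold, 8.45% lower and 5.05% higher in TS2. The median difference of the 77 genes was -0.35, which is 1.27-fold TS1 over TS2, against 0.013 over all genes. At an unadjusted p under 0.05, 47 of the 77 were lower and 2 (Mrpl24 and Mrpl17) higher. The differences were small: 0 of the 77 genes reached 2-fold, and the largest, in Mrpl38, was 1.87-fold. In RNA from a whole culture, fewer cells with a transcript and less of it per cell cannot be told apart.

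Direction was more uniform than the number of calls shows. Differences were below 0 for 68 of the 77 genes (88.3%), against 47.3% of all genes. Both TS2 arrays lay below both TS1 arrays for 63 of the 77, against 29.3% of all genes. Both lay above for 4, against 29.1% of all genes, and the lines overlapped for 10. These genes were brighter than most. Among the 7535 genes within their range of mean intensity, the median difference was -0.11 and 62.6% lay below 0. That median depended on the scaling: it was -0.0334 when the arrays were quantile normalized again, where the median of the 77 genes was -0.27. Of those genes, 15.0% were called lower in TS2, and 48.5% had both TS2 arrays below both TS1 arrays. Across the 77 genes themselves, the difference had a Pearson correlation of -0.125 with mean intensity. This is a description over genes read on the same 4 arrays.

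**Figure D1:**
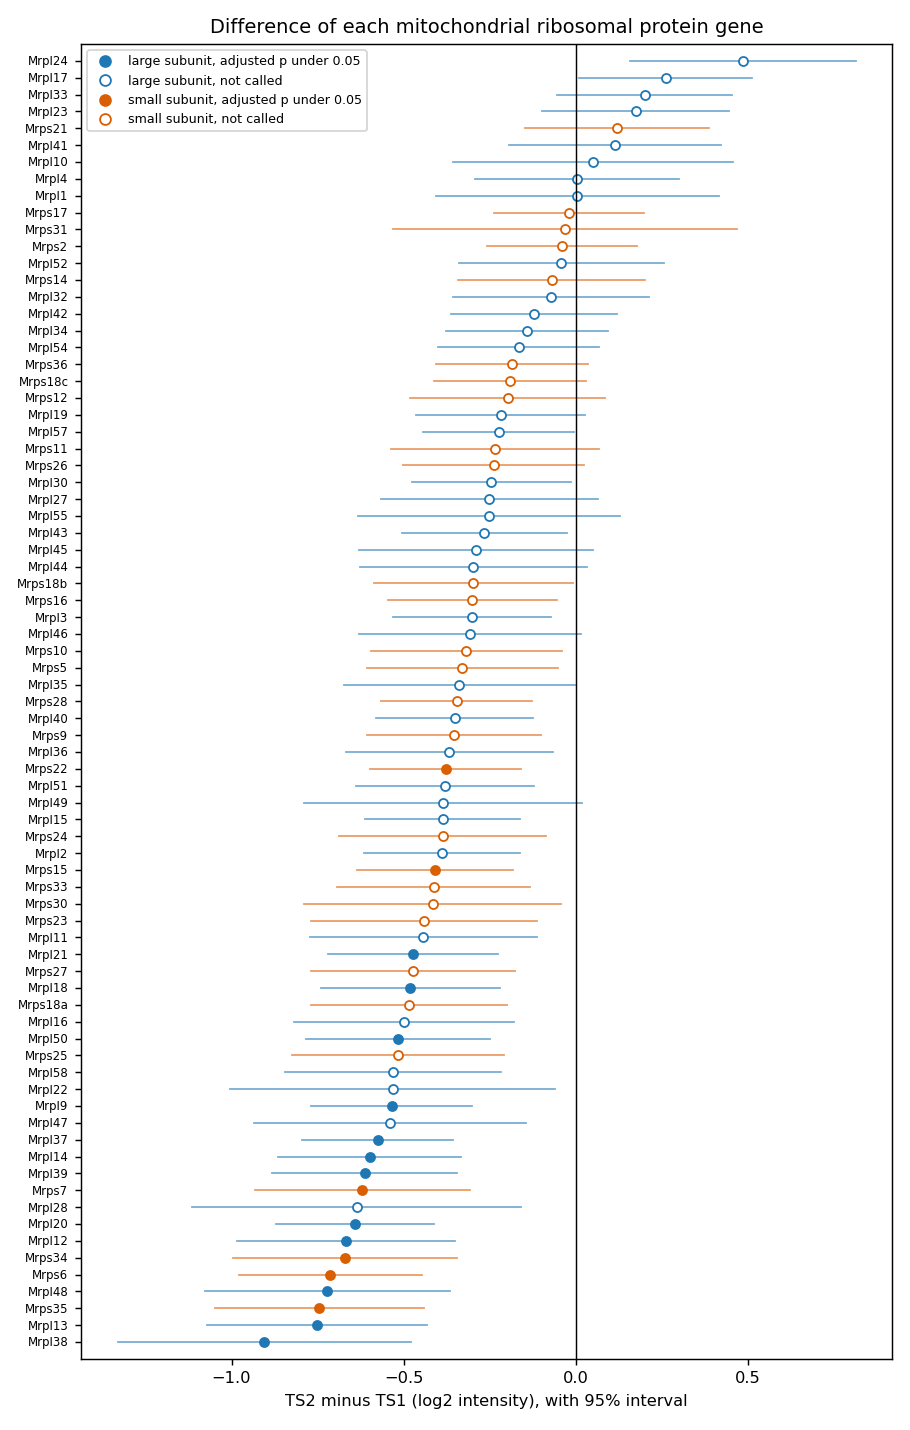
Difference TS2 minus TS1 in log2 intensity for each of the 77 genes, in order, with the 95% interval from limma; blue marks large and orange small subunit genes, and filled circles the 18 genes with an adjusted p under 0.05. Circles for 68 of the 77 genes lie left of 0, from Mrpl38 at -0.90 upward, and Mrpl24 stands highest at 0.49.

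**Figure D2:**
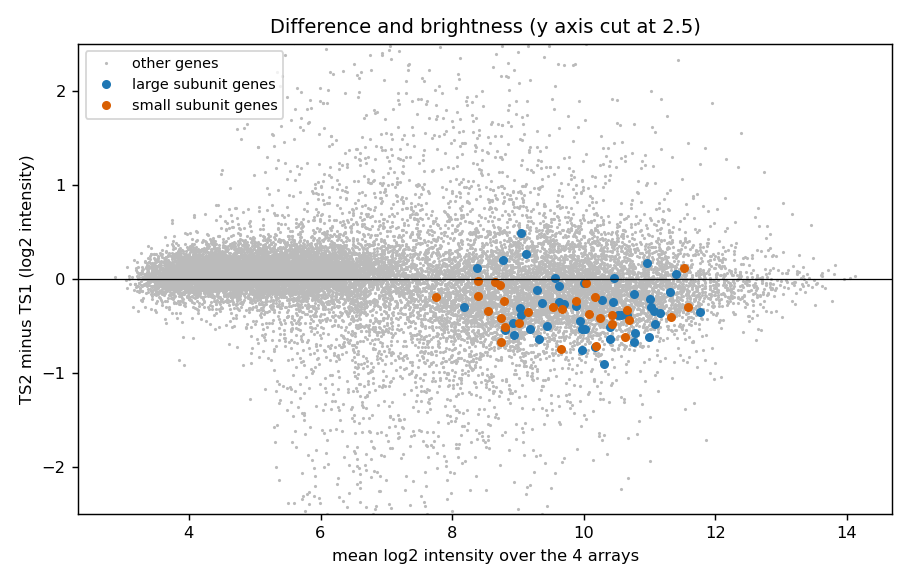
Difference TS2 minus TS1 in log2 intensity against mean log2 intensity over the 4 arrays, with large subunit genes in blue, small subunit genes in orange and all other genes in grey (genes beyond 2.5 are not drawn). The coloured points lie mostly below 0 in the brighter part of the array, where the median of all 7535 genes was -0.11 (-0.0334 when the arrays were quantile normalized again).

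The calls rested on few arrays. The fit had 2 residual degrees of freedom and a prior worth 3.03, and with 2 arrays a line the smallest two-sided p of an exact permutation test is 0.333. Without TS2 A, 0 of the 77 genes were called lower, without TS2 B 2, without TS1 A 13 and without TS1 B 4. Of the 18 genes called lower, 0 kept the call in all of these fits, and 0 changed sign in any. The median difference of the 77 genes stayed between -0.371 and -0.299 over the same fits.

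Large and small subunit genes gave nearly the same result. Of 48 large subunit genes, 12 were lower in TS2 (25%), and of 29 small subunit genes, 6 were (20.7%), with 0 higher in either. Their median differences were -0.34 and -0.35, so that large minus small was 0.0016. With Mrps30 and Mrps18a counted where the proteins sit, in the large subunit, it was -0.0297, and over all alternatives it lay within a few hundredths of 0 on either side. Differences were below 0 for 83.3% of large and 96.6% of small subunit genes, the one small subunit gene above 0 being Mrps21. All 4 genes whose TS2 arrays lay above the TS1 arrays (Mrpl24, Mrpl17, Mrpl33 and Mrpl23) belong to the large subunit, which holds 48 of the 77 genes. That order was found for 29.1% of all genes.

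Array by array, the median deviation from each gene's own mean was -0.183 in TS2 A and -0.191 in TS2 B for large subunit genes, against 0.123 in TS1 A and 0.178 in TS1 B. For small subunit genes it was -0.155 in TS2 A and -0.178 in TS2 B, against 0.124 in TS1 A and 0.199 in TS1 B. Both TS2 arrays thus lay below both TS1 arrays for either subunit. The median absolute gap between A and B over the 77 genes was 0.0836 for the TS2 duplicates, against 0.161 for the TS1 duplicates, which were farther apart.

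**Figure D3:**
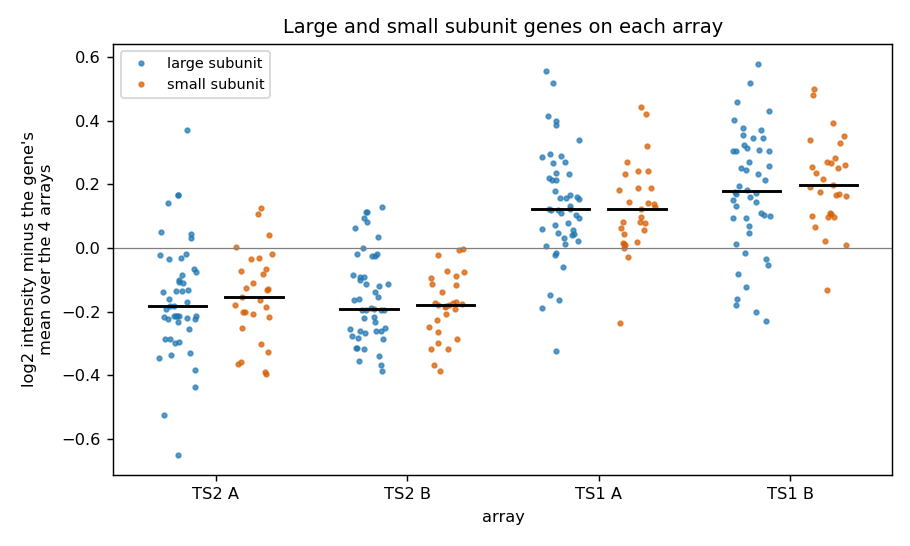
Log2 intensity minus each gene's mean over the 4 arrays, for TS2 A, TS2 B, TS1 A and TS1 B, with each point 1 gene, blue for the large and orange for the small subunit, and black lines for medians. Both subunits have medians between -0.191 and -0.155 on the TS2 arrays and between 0.123 and 0.199 on the TS1 arrays.

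Among large subunit genes, the largest difference was that of Mrpl38, a protein without bacterial counterpart in the central protuberance, a projection at the top of the large subunit. Mrpl38 had 9.66 and 10.06 in TS2 A and B, against 10.87 and 10.66 in TS1 A and B. The difference was -0.90 (SE 0.17, adjusted p = 0.0294 in limma). Mrpl48, also of the protuberance, had 9.65 and 9.98 in TS2, against 10.59 and 10.48 in TS1 (-0.72, SE 0.14, adjusted p = 0.0335). In both genes TS2 A was the lowest array, and the lines did not overlap.

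Mrpl13, which has a bacterial counterpart, had 9.59 and 9.60 in TS2, against 10.20 and 10.49 in TS1 (-0.75, SE 0.12, adjusted p = 0.0228). Mrpl20, whose bacterial counterpart is needed early in the assembly of the large subunit, had 10.11 and 10.04 in TS2, against 10.69 and 10.74 in TS1. The difference was -0.64 (SE 0.089, adjusted p = 0.0146), the lowest adjusted p of the 77 genes. Mrpl39, a mitochondria-specific protein near the exit of the peptide tunnel, had 10.67 and 10.71 in TS2, against 11.40 and 11.21 in TS1 (-0.61, SE 0.10, adjusted p = 0.0246).

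Mrpl12 belongs to the flexible stalk that recruits translation factors, and is also known to bind the mitochondrial RNA polymerase. It had 10.33 and 10.53 in TS2, against 11.002 and 11.198 in TS1. The difference was -0.67 (SE 0.12, adjusted p = 0.0299). The other stalk genes were not called. Mrpl11 differed by -0.44 (adjusted p = 0.0915). Mrpl10, which anchors Mrpl12 to the ribosome, had 11.37 and 11.48 in TS2, against 11.58 and 11.17 in TS1, so that the lines overlapped (0.05, adjusted p = 0.879).

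Among small subunit genes, Mrps35, a mitochondria-specific protein, had 9.30 and 9.27 in TS2, against 9.90 and 10.16 in TS1. The difference was -0.74 (SE 0.12, adjusted p = 0.0206). Mrps6, with a bacterial counterpart, had 9.79 and 9.87 in TS2, against 10.63 and 10.45 in TS1 (-0.71, SE 0.10, adjusted p = 0.0163). These genes lost their calls without TS2 A or TS2 B, and kept them without TS1 A and without TS1 B.

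Mrps34, another mitochondria-specific protein, had 8.44 and 8.38 in TS2, against 8.93 and 9.23 in TS1 (-0.67, SE 0.13, adjusted p = 0.0320). Mrps7, whose bacterial counterpart binds the ribosomal RNA of the head of the small subunit, had 10.23 and 10.40 in TS2, against 11.05 and 10.82 in TS1 (-0.62, SE 0.12, adjusted p = 0.0349). The call of Mrps7 was lost without any one of the 4 arrays, with differences between -0.73 and -0.509.

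The other 8 genes with a call differed by less. Mrps15 is among them by its brightness, and the rest were named after their values were seen. Mrpl14 had 8.72 and 8.55 in TS2, against 9.28 and 9.20 in TS1 (-0.60). Mrpl37 had 10.49 and 10.51 in TS2, against 11.06 and 11.09 in TS1 (-0.58), with duplicates close together in both lines. Mrpl9 differed by -0.53, Mrpl50 by -0.52, Mrpl18 by -0.48, Mrpl21 by -0.47, Mrps15 by -0.41 and Mrps22 by -0.38. Their adjusted p ran from 0.0173 for Mrpl37 to 0.0496 for Mrps22 in limma. In all 18 called genes the lines did not overlap, and the fold, TS1 over TS2, lay between 1.30 and 1.87. Selection by a call on these same arrays favours such an order, so it adds no support. Both TS2 arrays lay below both TS1 arrays for 29.3% of all genes and 48.5% in the same intensity range.

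**Figure D4:**
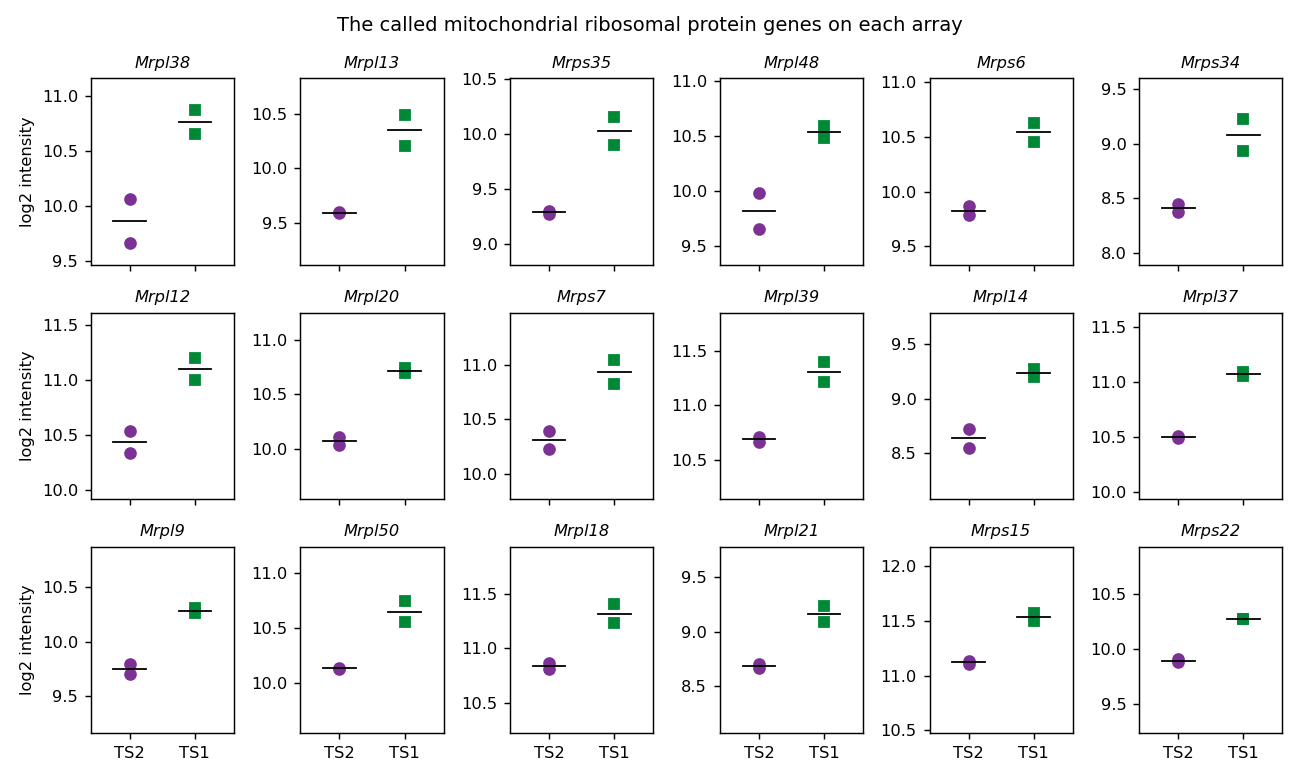
Log2 intensity of the 18 called genes on each array, with TS2 (purple circles) left of TS1 (green squares) and black lines for the line means; each panel has its own range of the same height, so that panels compare differences and not levels. In every panel both TS2 points lie below both TS1 points, from Mrpl38 (-0.90) to Mrps22 (-0.38). The genes were selected by calls on these same arrays, so this adds no support to the calls.

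The threshold cut through a run of like values. Just outside it stood Mrpl2 (-0.39, adjusted p = 0.0504), Mrpl15 (-0.39, 0.0510), Mrps18a (-0.48, 0.0515) and Mrpl58 (-0.53, 0.0529), in the same limma fit. Mrpl28 differed by -0.64, as much as several called genes, but its TS1 duplicates stood at 9.37 and 9.90 (adjusted p = 0.0937). Of the 59 genes without a call, 45 had both TS2 arrays below both TS1 arrays. That order was common on these arrays. It held for 29.3% of all genes and for 48.5% of genes in the same intensity range, called or not. By itself it does not place a gene near the threshold.

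Genes with higher values in TS2 were few. Mrpl24, a protein near the exit of the peptide tunnel, had 9.42 and 9.16 in TS2, against 8.73 and 8.89 in TS1 (0.49, SE 0.13, adjusted p = 0.0732). Mrpl24 passed the threshold when the arrays were quantile normalized again. Mrpl17, also near the tunnel exit, had 9.29 and 9.21 in TS2, against 9.06 and 8.92 in TS1 (0.26, adjusted p = 0.159). Mrpl23, the tunnel exit protein whose bacterial counterpart binds factors that meet the nascent chain, had 11.01 and 11.09 in TS2, against 10.97 and 10.78 in TS1 (0.17, adjusted p = 0.356). Mrpl33 had 8.95 and 8.81 in TS2, against 8.63 and 8.73 in TS1 (0.20, adjusted p = 0.261). The choice to name Mrpl24, Mrpl17 and Mrpl33 was made with their values in view.

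The 8 genes of the tunnel exit were thus split. Mrpl24, Mrpl17 and Mrpl23 had both TS2 arrays above both TS1 arrays. Mrpl22, Mrpl47, Mrpl44, Mrpl45 and Mrpl39 had both below, with Mrpl39 called lower. For Mrpl47 this held only in its brighter probe set. Over all genes, 29.1% had both above and 29.3% both below, the latter 48.5% in the same intensity range. The median of the 8 was -0.29. In the central protuberance, where a mitochondrial tRNA takes the place that a small ribosomal RNA has in bacteria, all 9 genes differed by less than 0. That sign was held by 47.3% of all genes and 62.6% in the same intensity range. Mrpl38, Mrpl48 and Mrpl18 were called (33.3%, against 8.45% of all genes and 15.0% in that range), and the median of the 9 was -0.35. The S18 family has 3 nuclear genes in mammals, and 0 were called, with differences of -0.48 for Mrps18a, -0.30 for Mrps18b and -0.19 for Mrps18c. These groupings were made with the values known.

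Several genes have a particular standing. Mrpl58, a peptidyl-tRNA hydrolase built into the ribosome that can release stalled chains, had 9.64 and 9.78 in TS2, against 10.37 and 10.12 in TS1. Mrps30, which in spite of its name sits in the large subunit, had 8.41 and 8.65 in TS2, against 8.80 and 9.09 in TS1 (-0.42, adjusted p = 0.139). Mrps36 is now known as a subunit of the 2-oxoglutarate dehydrogenase complex rather than of the ribosome. It had 8.28 and 8.32 in TS2, against 8.468 and 8.497 in TS1 (-0.18, adjusted p = 0.240). Mrps12, a protein of the decoding centre and the dimmest of the 77, had 7.73 and 7.57 in TS2, against 7.77 and 7.93 in TS1 (-0.20, adjusted p = 0.319). Mrps5 differed by -0.33 (adjusted p = 0.121). Mrpl41 had 8.51 and 8.35 in TS2, against 8.21 and 8.42 in TS1, so that the lines overlapped (0.12, adjusted p = 0.599).

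The brightest probe sets were those of Mrpl40, Mrps18b, Mrps21, Mrpl10 and Mrps15. Mrpl40 had 11.55 and 11.62 in TS2, against 11.92 and 11.96 in TS1 (-0.35, adjusted p = 0.0657). Mrps21 had 11.65 and 11.52 in TS2, against 11.53 and 11.39 in TS1, so that the lines overlapped. Beside Mrps12, the dimmest were Mrpl44, Mrpl41, Mrps36 and Mrps17. Mrps17 had 8.39 and 8.37 in TS2, against 8.40 and 8.40 in TS1 (-0.02, adjusted p = 0.916), and its sign turned under other scalings of the arrays. Brightness of different probe sets depends on their probes, so these levels do not order the genes by amount of RNA.

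For 8 of the 77 genes a second probe set could be read, and 7 of these agreed in sign. The exception was Mrpl47, a protein of the tunnel exit. Its brighter probe set had 8.46 and 8.61 in TS2, against 8.88 and 9.26 in TS1 (-0.54). Its dimmer one had 7.20 and 7.17 in TS2, against 7.12 and 7.21 in TS1 (0.018).

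Division of the genes by evolutionary origin gave similar medians. Of 47 genes with a bacterial counterpart, 10 were lower in TS2 (21.3%), with a median of -0.33 and 83% below 0. Of 29 mitochondria-specific genes, 8 were lower (27.6%), with a median of -0.38 and 96.6% below 0. Of all genes, 8.45% were lower, and 15.0% within the same intensity range. The class medians, in the same order, were -0.37 and -0.31 in the large subunit, but -0.31 and -0.43 in the small. Mrps36 was put in neither class. The genes lie on 17 chromosomes, and the 18 called ones on 10. The chromosomes named here were picked with the calls known, and their counts stand beside the same 8.45% of all genes. On chromosome 4, all 4 of them were called (Mrpl20, Mrpl37, Mrpl50 and Mrps15). There the median of the other genes was -0.0698, the lowest such median of the 17 chromosomes. Chromosome 11 holds 11, of which 3 were called (Mrpl38, Mrpl12 and Mrps7), and chromosome 17 holds 8, of which 3 were called (Mrps34, Mrpl14 and Mrpl18). The neighbours Mrpl46 and Mrps11 differed by -0.31 and -0.23, and neither was called. Of the 14 called genes with a promoter window, 4 held the ETS core, 2 the YY1 core, 2 the NRF1 motif and 2 the E-box. Of the 54 without a call, the counts were 21, 10, 6 and 3.

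Other genes of mitochondrial gene expression were read for comparison, by lists chosen for function with earlier results known. Among 4 mitoribosomal proteins with other symbols, Chchd1 was lower in TS2, with 9.98 and 9.81 in TS2, against 10.36 and 10.63 in TS1 (-0.60, adjusted p = 0.0470). Ptcd3 differed by -0.36, Dap3 by -0.13 and Gadd45gip1 by 0.12, without a call. Of 27 factors that assemble the ribosome or modify its RNA, 4 were lower: the methyltransferases Mettl15 (-0.68) and Nsun4 (-0.56), the GTPase Noa1 (-0.49) and Fastkd2 (-0.48). Rcc1l was higher (0.45). The median of the 27 was -0.26, and 14.8% of them were called lower. Of all genes 8.45% were, and of genes in the intensity range of the 77, 15.0%.

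Of 16 mitochondrial translation factors, 3 were lower in TS2 (18.8%) and 0 higher, with a median of -0.22. The initiation factor Mtif3 had 8.25 and 8.18 in TS2, against 9.01 and 8.83 in TS1 (-0.70). The elongation factor Tufm had 10.14 and 10.29 in TS2, against 10.69 and 10.75 in TS1 (-0.51). Oxa1l, the insertase that takes up nascent chains at the inner membrane, had 11.21 and 11.19 in TS2, against 11.70 and 11.70 in TS1 (-0.50). Of 20 mitochondrial aminoacyl-tRNA synthetases, Yars2 (-0.75) and Aars2 (-0.54) were lower, and the median was -0.077. That is 10% of them, near the 8.45% of all genes.

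Of 15 genes of mitochondrial RNA processing, 4 were lower and 1 higher, with a median of -0.31. Hsd17b10, a subunit of the protein-only RNase P of mitochondria, had 11.12 and 10.93 in TS2, against 12.32 and 12.36 in TS1 (-1.32, adjusted p = 0.00299). Its partner Trmt10c (-0.57), the tRNA 3′ endonuclease Elac2 (-0.62) and Ptcd1 (-0.44) were also lower, and the exonuclease Rexo2 was higher (0.50). Prorp, another subunit of that RNase P, was not called (-0.25, adjusted p = 0.134 in limma). Of 12 genes of mitochondrial transcription and DNA maintenance, Tefm, the transcription elongation factor, was lower (-0.62), and the thymidine kinase Tk2 (1.04) and the transcription factor Tfb2m (0.51) were higher, with a median of -0.23. That is 8.33% lower, near the 8.45% of all genes, and 16.7% higher.

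Of 30 genes of mitochondrial protein import, which brings in all of these proteins, 4 were lower and 2 higher, with a median of -0.30. Those called lower made up 13.3%, against 8.45% of all genes and 15% in the intensity range of the mitochondrial ribosomal protein genes. Those called higher made up 6.67%, against 5.05% and 7.74%. The median was 0.013 over all genes and -0.11 in that range. Timm8a1 had 9.67 and 9.79 in TS2, against 10.82 and 11.27 in TS1 (-1.31). Timm22 (-0.62), Tomm22 (-0.51) and Timm17b (-0.47) were lower, and Timm44 (0.64) and Tomm40l (0.51) were higher. Rcc1l, Ptcd1, Prorp, Timm17b and Tomm40l were picked with their values in view. Of the 32 companion and marker genes taken by the naming rule, 6 kept their calls without each array in turn, among them Hsd17b10, Tk2 and Myc.

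The cytosolic ribosome and the respiratory chain were read in the same way, beside the 13.5% of all genes that were called. Of 61 cytosolic ribosomal protein genes, 1 was lower (Rpl36a, -0.65) and 1 higher (Rps4l, 0.50), with a median of -0.055. Of 81 nuclear genes of respiratory chain and ATP synthase subunits, 4 were lower (Ndufa5, -0.74; Ndufs5, -0.49; Atp5o, -0.45; Uqcrh, -0.44) and 0 higher, with a median of -0.094. The cytosolic genes were brighter, with a median log2 intensity of 12.34 over the 4 arrays, against 9.98 for the mitochondrial ribosomal protein genes, whose brightest had 11.76. Whether these counts and medians differ from those of the mitochondrial ribosomal protein genes was not tested, nor was the part of brightness.

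**Figure D5:**
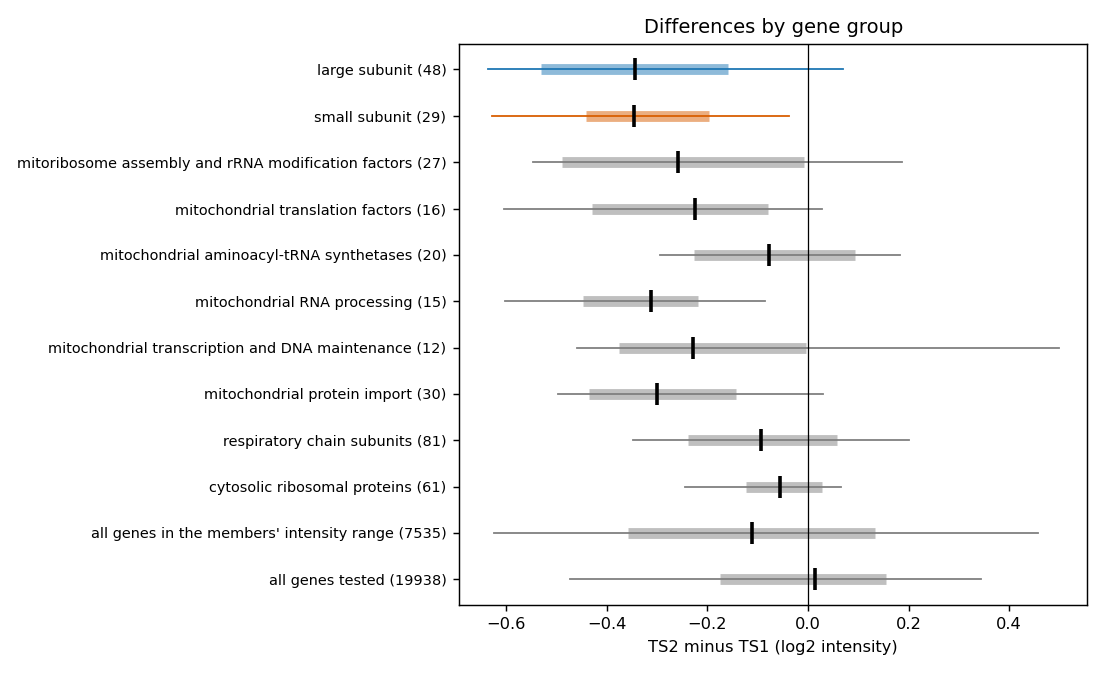
Difference TS2 minus TS1 in log2 intensity for groups of genes, with the number of genes in brackets; black ticks are medians, thick bars the quartiles and thin lines the range between the 10th and 90th percentiles. Medians were -0.34 and -0.35 for the large and small subunit, -0.31 for RNA processing, -0.055 for cytosolic ribosomal proteins and 0.013 for all genes. The groups differ in brightness.

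Of 9 known regulators of mitochondrial genes, 1 was called (11.1%), against 13.5% of all genes. Myc, a transcription factor whose known targets include ribosome and mitochondrial genes, had 12.63 and 12.56 in TS2, against 10.09 and 10.45 in TS1 (2.33, adjusted p = 0.00157). The motif-binding factors Nrf1 (-0.20), Gabpa (-0.23) and Yy1 (0.12) were not called, with adjusted p of 0.222, 0.162 and 0.538. Ppargc1a, a coactivator of mitochondrial genes, had 4.81 and 5.19 in TS2, against 5.97 and 7.04 in TS1 (adjusted p = 0.0600). These 4 genes were picked with their values in view, and the part of any regulator in the lower values was not tested.

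The labelled cell type was checked by markers. Of 9 T cell markers measured, Cd3e had 12.74 and 12.53 in TS2, against 6.45 and 6.41 in TS1, and Cd247 was also higher in TS2 (2.83). Cd3g had 10.39 and 11.98 in TS2, against 10.52 and 6.07 in TS1, so that the TS1 duplicates differed. The other 6, Cd4 among them, stayed between 4.63 and 6.32 on the 4 arrays. Markers of B cells and myeloid cells did not exceed 6.24 on any array. Of 4 mast cell markers, Fcer1a had 13.00 and 13.08 in TS2, against 12.69 and 12.91 in TS1, Cpa3 had 8.91 and 7.95 in TS2, against 9.133 and 8.995 in TS1, Kit was lower in TS2 (-1.90), and Ms4a2 did not exceed 4.22. Of 4 fibroblast markers, Pdgfra was lower in TS2 (-1.78), and the highest value on any array was 7.75. The part of these differences between the lines in the mitochondrial ribosomal values was not tested.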

How the data were processed

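Total RNA of TS2 and TS1 was labelled and hybridised to Affymetrix mouse gene arrays, 2 for each line. Per the submitters' processing notes, the authors used Affymetrix Expression Console and RMA, with no version given. RMA includes a normalization between arrays, which is meant to remove a shift shared by most genes. In the deposited values, genes in the intensity range of the 77 still had a median difference of -0.11. It was -0.0334 when the arrays were quantile normalized again. The deposited values were intensities on a linear scale, with medians of 88.6 and 89.9 for TS2 and 89 and 92.5 for TS1. The design had assumed log2 values, so log2 of the deposited intensities was taken. Detection calls and scan batches were not used here. Precision is limited by the number of arrays.

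Of 35556 probe sets, 21789 had 1 gene in the platform annotation, 1621 several and 12146 none. The brightest single-gene probe set by mean of the 4 arrays stood for each gene. The lmFit and eBayes functions of limma 3.58.1 (R 4.3.3; tables read with data.table, version 1.17.8) were run on all genes with the line as factor and Benjamini-Hochberg adjustment over all 19938. Counts and medians of lists carry no test.

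The members and lists were chosen with earlier results of these data known. Genes named by rule were the called members with the 10 largest differences each way, the 5 brightest and 5 dimmest, members whose probe sets differ in sign, up to 4 called genes of each companion list, and Mrpl12, Mrps12, Mrps30, Mrps18a, Mrps36, Mrpl58, Mrpl40, Mrpl23, Mrps5 and Mrpl41. Others were named after their values were seen, and the groupings by place in the ribosome and the comparison within the intensity range were chosen after seeing the data. The alternatives were a replicate block, other prior variances, other scalings, filters on dim probe sets, means of probe sets, a stricter threshold, other memberships and each array left out. In a fit without 1 array, the spread of the line left with a single array is taken from the other one.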

Additional observations from a re-analysis of the deposited data

How the results depend on the processing

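The direction of the median held under every alternative, while the counts moved. With all members, large and small subunit genes in that order, 18, 12 and 6 were called lower in TS2. With the replicate letter as a block, 7, 5 and 2 were, although the letters only name the samples (the correlation of A and B deviations between the lines was -0.0294). At an adjusted p under 0.01 they were 0, 0 and 0. Each array left out in turn gave 0 to 13, 0 to 9 and 0 to 4. Quantile normalization gave 3 small subunit genes lower, and leaving out the dimmest 50% gave 10. With the genes of the same intensity range alone tested, an alternative added after seeing the data, the count was 30, with 12 of the small subunit. Quantile normalization and this restriction each called 1 gene higher, Mrpl24 of the large subunit.

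Median differences under quantile normalization were -0.27, -0.278 and -0.253, and -0.235, -0.233 and -0.235 with the median of the intensity range subtracted (added after seeing the data). With each array left out they ran from -0.371 to -0.299, from -0.375 to -0.315 and from -0.372 to -0.275. Large minus small was -0.0245 with quantile normalization, 0.0319 with the mean of all probe sets, -0.0297 with Mrps30 and Mrps18a moved, 0.0165 with other symbols added, and from -0.0401 to 0.00384 with an array left out. Mrps17 turned to 0.00431 with centring and 0.082 with quantile normalization, and Mrpl10 ran from -0.155 to 0.255 with an array left out, at -0.155 without TS1 B and -0.00496 without TS2 B. The cause of these changes was not tested. With an array left out, fewer degrees of freedom remain.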
